A study of Mus musculus with 8 samples.

Results

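The regions described here carried an H3.3-HA peak in wild type (WT) mouse cells at day 15 and at day 0 of differentiation, and no peak in Hira-null cells at either day. They were chosen by merging all peaks of the 4 deposited peak lists, overlapping or touching, into 58306 regions and keeping those that held a peak of both WT lists and none of either Hira-null list. The rule kept 4382 regions, 7.52% of all merged regions. Of these, 2598 lay outside chromosomes 8 and 11, which is 5.62% of the 46219 regions there. Since the rule used the presence and absence of peaks, the counts, peak scores and distances below describe the choice and are given without a test.

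The study mapped HA-tagged H3.3 in the W9.5 line of WT mESCs, that is, mouse embryonic stem cells, and in Clone 104 Hira-null mESCs, which lack HIRA and come from a single clone. Each genotype was sampled at day 15, after hanging-drop culture towards cardiomyocytes, and undifferentiated at day 0. The day 15 cultures held beating foci among other cells, so the 4 conditions differ in cell composition as well as in HIRA. Each condition had 1 ChIP library, made by native MNase ChIP with an HA antibody, and 1 input library, and there were no replicates. All 4 conditions carry the tagged H3.3, and peak lists hold no expression values with which the cell type could be checked.

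H3.3 is a histone H3 variant that is deposited throughout the cell cycle, in contrast to the replication-coupled H3 forms. HIRA is a histone chaperone that, with UBN1, UBN2 and CABIN1, delivers H3.3 mainly to active and regulatory chromatin. A second chaperone pair, DAXX and ATRX, deposits H3.3 at heterochromatin and telomeres. H3.3 is known to mark the flanks of active transcription start sites (TSSs), enhancers and transcribed gene bodies.

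The sequences below show where a region at a promoter lay relative to the CpG-rich start of the gene. For 3 of the promoter regions that ranked highest at both days, the 150 bp at the centre of the bases under both WT peaks are printed first. The 150 bp just before the TSS of the same gene follow. All are mm9 bases in the direction of the gene, and capitals mark CpG dinucleotides.
Ctnnal1 region centre (chr4:56878990-56879139, minus strand): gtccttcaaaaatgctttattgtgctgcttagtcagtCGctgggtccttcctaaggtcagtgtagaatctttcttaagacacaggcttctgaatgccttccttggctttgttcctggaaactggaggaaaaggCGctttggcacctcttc
Ctnnal1 bases before the TSS (chr4:56878061-56878210, minus strand): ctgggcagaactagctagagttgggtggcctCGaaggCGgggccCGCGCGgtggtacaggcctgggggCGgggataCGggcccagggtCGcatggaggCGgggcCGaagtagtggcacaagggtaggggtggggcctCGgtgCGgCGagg
Syncrip region centre (chr9:88378800-88378949, minus strand): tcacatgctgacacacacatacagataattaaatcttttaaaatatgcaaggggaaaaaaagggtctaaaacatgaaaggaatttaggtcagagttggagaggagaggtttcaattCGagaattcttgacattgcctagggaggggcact
Syncrip bases before the TSS (chr9:88377413-88377562, minus strand): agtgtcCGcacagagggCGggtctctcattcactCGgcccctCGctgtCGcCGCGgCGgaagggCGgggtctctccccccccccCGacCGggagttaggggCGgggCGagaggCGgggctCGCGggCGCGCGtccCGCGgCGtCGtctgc
Ect2 region centre (chr3:27053970-27054119, minus strand): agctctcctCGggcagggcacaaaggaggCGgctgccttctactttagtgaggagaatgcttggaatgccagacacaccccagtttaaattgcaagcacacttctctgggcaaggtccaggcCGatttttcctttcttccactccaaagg
Ect2 bases before the TSS (chr3:27052801-27052950, minus strand): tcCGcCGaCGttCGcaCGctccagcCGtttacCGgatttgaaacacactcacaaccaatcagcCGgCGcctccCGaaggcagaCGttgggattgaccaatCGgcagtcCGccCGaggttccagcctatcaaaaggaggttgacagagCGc
The region centre held 2 CpG at Ctnnal1, the gene of alpha-catulin, against 13 before its TSS. At Syncrip, which encodes an RNA-binding hnRNP protein, the centre held 1 CpG, against 23. At Ect2, a gene of cytokinesis, it held 3, against 15. The difference was smaller at Coq3, with 1 against 8, and at Arl6ip5, with 0 against 3, and at Sall4 it was turned round, with 4 against 2.

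The same 150 bp are printed for 3 regions away from promoters, on the plus strand of mm9, because these lie in a gene of the splicing list, in a gene of a cardiac list and in the strongest distal region outside chromosomes 8 and 11.
Hnrnpd intron (chr5:100393325-100393474, plus strand): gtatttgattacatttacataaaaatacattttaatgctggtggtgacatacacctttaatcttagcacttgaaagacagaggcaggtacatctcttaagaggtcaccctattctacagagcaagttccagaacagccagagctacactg
Tead1 intron (chr7:119832051-119832200, plus strand): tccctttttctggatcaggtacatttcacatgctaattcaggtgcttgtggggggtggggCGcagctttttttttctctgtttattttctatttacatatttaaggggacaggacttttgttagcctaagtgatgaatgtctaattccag
distal region nearest Zfp281 (chr1:138592322-138592471, plus strand): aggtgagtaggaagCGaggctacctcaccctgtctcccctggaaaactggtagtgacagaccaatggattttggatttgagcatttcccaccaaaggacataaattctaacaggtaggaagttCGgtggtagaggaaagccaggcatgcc
These held 0, 1 and 2 CpG in the printed order. Hnrnpd encodes an RNA-binding hnRNP protein, Tead1 a transcription factor of the Hippo pathway and Zfp281 a zinc finger factor of embryonic stem cells.

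H3.3-HA regions shared by both WT days and missing in Hira-null cells lay in promoters more often than the other WT sets compared. By midpoint, 722 of 4382 regions (16.5%, exact 95% interval 15.4 to 17.6) lay in a promoter, taken as the 3 kb upstream of a protein-coding TSS. The share was 18.7% (17.2 to 20.3) without chromosomes 8 and 11. In the 1061 WT both-day regions that did hold a Hira-null peak it was 9.43% (7.73 to 11.3). Promoters made up 2.56% of the genome, so the share of the regions without a Hira-null peak was 6.44 times that of the genome. All intervals here are Clopper-Pearson intervals and cover counting error over regions only, not the spread between libraries, which could not be measured.

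The regions with and without a Hira-null peak also differed at the other end of genes. Within 3 kb past a gene end lay 6.60% (5.88 to 7.37) of the regions without a Hira-null peak, against 18.9% (16.6 to 21.4) of those with one. In 3′ UTRs the shares were 2.76% (2.30 to 3.29) and 5.84% (4.51 to 7.43). Introns held 51.1% (49.6 to 52.6) of the regions without a Hira-null peak and 31.7% (28.9 to 34.6) of those with one. Distal intergenic sequence held 20.7% (19.5 to 21.9) and 31.1% (28.3 to 34.0). The share of 6.60% past gene ends was low only beside the regions with a Hira-null peak. It was above the 5.10% of all merged regions and the 2.30% of the genome. WT regions of 1 day without a Hira-null peak had 6.02% (5.69 to 6.36) for day 15 only and 3.44% (3.11 to 3.79) for day 0 only. In the same order, 3′ UTRs held 2.42% and 1.34% of them, introns 57.9% and 45.1%, and distal intergenic sequence 22.1% and 40.1%. Over all merged regions, 3′ UTRs held 1.78%, introns 42.2% and distal intergenic sequence 42.4%. These classes made up 0.962%, 35.4% and 57.4% of the genome.

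**Figure D1:**
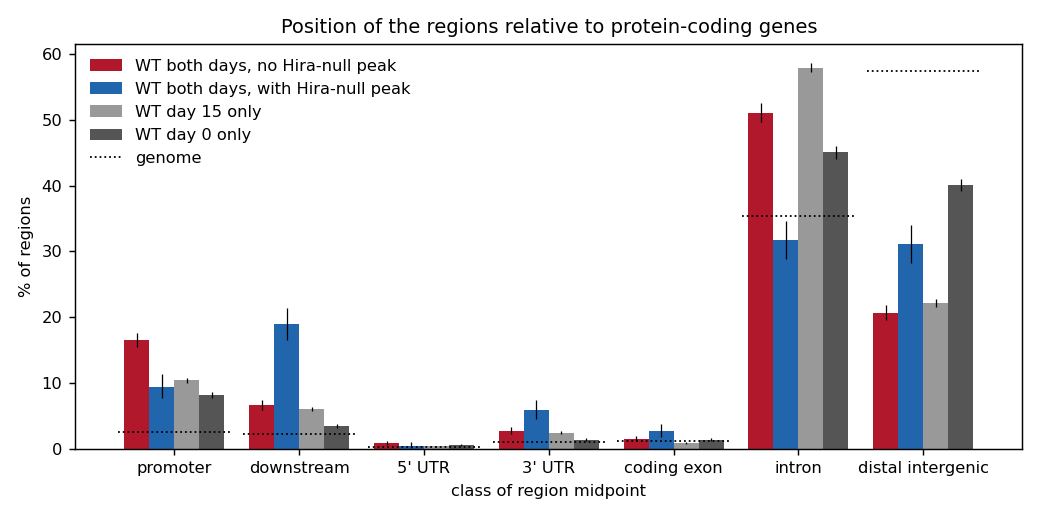
Share of regions by the class of the midpoint, in percent, for WT both-day regions without and with a Hira-null peak and for WT regions of 1 day, with bars for exact 95% intervals and dotted lines for the share of the genome. The promoter bar of the regions without a Hira-null peak, at 16.5%, is the highest of the 4, while their downstream bar, at 6.60%, is well below the 18.9% of the regions with a Hira-null peak.

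The regions with a Hira-null peak were wider, with a median of 2628 bp against 1656 bp, and scored higher, so both contrasts were repeated in like regions. Among regions under 3 kb wide, 17.8% (16.6 to 19.0) of 3792 without and 9.39% (7.23 to 12.0) of 628 with a Hira-null peak lay in promoters. Downstream of genes the shares were 5.91% (5.18 to 6.71) and 14.3% (11.7 to 17.3). Among regions above the 50th percentile of peak score at both WT days, promoters held 16.5% (14.8 to 18.3) of 1792 and 11.1% (8.72 to 13.9) of 613. Downstream sequence held 7.14% (5.99 to 8.43) and 22.7% (19.4 to 26.2). In each stratum the intervals of the 2 sets stayed apart.

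Around the nearest TSS, midpoints were most frequent between 500 and 1000 bp upstream, with 225 regions in that 500 bp bin, or 51.3 per 1000 regions. The next bin upstream held 173, and the 2 bins that flank the TSS held 75 upstream and 36 downstream. A lower crest of 81 regions lay between 1000 and 1500 bp downstream. In all, 15.3% (14.2 to 16.4) of the midpoints lay within 3 kb upstream of the nearest TSS and 6.98% (6.25 to 7.78) within 3 kb downstream. In the regions with a Hira-null peak the crest was lower and farther out, with 26.4 per 1000 regions between 1500 and 2000 bp upstream. Within 1 kb of a TSS on either side lay 9.13% (8.29 to 10) of the regions without and 2.73% (1.84 to 3.90) of those with a Hira-null peak. Within 1 kb of a gene end it was 6.82% (6.09 to 7.61) and 17.3% (15.1 to 19.8). These distances start at the midpoint of the merged region, which takes in the Hira-null peaks where there are any. By whole region the sets did not differ at the TSS. A TSS was covered by 5.02% (4.39 to 5.71) of the regions without and 5.37% (4.09 to 6.90) of those with a Hira-null peak. Without chromosomes 8 and 11 these shares were 5.08% and 4.73%.

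**Figure D2:**
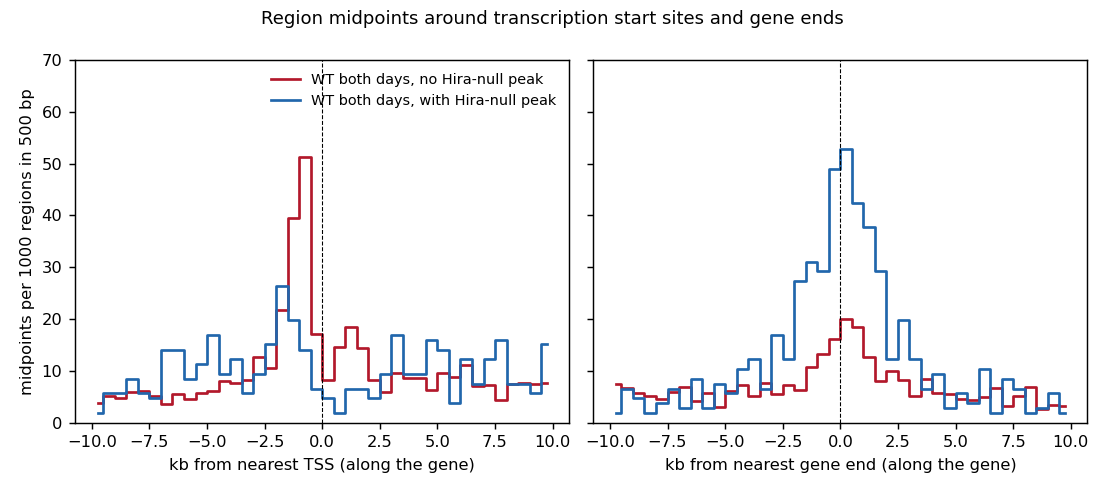
Midpoints per 1000 regions in 500 bp bins against the distance from the nearest TSS (left) and the nearest gene end (right), in kb along the direction of the gene, for WT both-day regions without (red) and with (blue) a Hira-null peak. The red line peaks at 51.3 per 1000 just upstream of the TSS, and the blue line peaks at the gene end.

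The genes next to these promoter regions mostly had a CpG-rich start, while the regions themselves did not. Sequence of 500 bp was called CpG-rich when its GC content was at least 50% and its ratio of observed to expected CpG at least 0.6. The 722 promoter regions belonged to 716 genes, of which 575 (80.3%, 77.2 to 83.2) had a CpG-rich TSS, against 47.6% (47.0 to 48.3) of all 22367 protein-coding genes. At the midpoint of the region, 12 of 722 (1.66%, 0.862 to 2.89) were CpG-rich. The midpoint lay a median of 1096 bp upstream of the TSS, with quartiles of 734 and 1627 bp. The median CpG ratio was 0.263 at the midpoint and 0.826 at the TSS. This was shared with other WT promoter regions, whose genes had a CpG-rich TSS in 76.4% (74.4 to 78.3) of cases for day 15 only and 70.4% (67.2 to 73.4) for day 0 only. Of the promoter regions without a Hira-null peak, 23.1% (20.1 to 26.4) reached over a TSS, against 45.0% (35.0 to 55.3) of the 100 wider ones with a Hira-null peak.

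Inside genes the regions leaned towards the start, as did WT regions of 1 day. Of 2272 regions inside a single gene of at least 20 kb, 26.2% (24.4 to 28.1) lay in the 20% of the gene nearest the TSS and 15.2% (13.7 to 16.7) in the last 20%. The same 2 shares were 25.3% (24.5 to 26.1) and 16.2% (15.6 to 16.9) for day 15 only, and 25.3% (24.1 to 26.6) and 16.7% (15.6 to 17.7) for day 0 only. Of 340 regions with a Hira-null peak, 15.0% (11.4 to 19.2) lay nearest the TSS and 36.2% (31.1 to 41.5) in the last 20%.

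Base composition set the regions little apart from those with a Hira-null peak. The median GC content was 44.0% (43.8 to 44.1), against 43.1% (42.8 to 43.5) with a Hira-null peak and 44.0% over all merged regions. It lay between the medians of the WT regions of 1 day, with 42.5% (42.4 to 42.5) for day 15 only and 45.7% (45.6 to 45.8) for day 0 only. CpG-rich midpoints made up 0.548% (0.351 to 0.814) of the 4382 regions, against 2.05% (1.94 to 2.17) of all merged regions. The low share was common to the WT sets, with 0.660% (0.266 to 1.35) for both days with a Hira-null peak. It was 0.303% (0.231 to 0.389) for day 15 only and 0.540% (0.412 to 0.695) for day 0 only. Hira-null regions without a WT peak had 4.74% (4.41 to 5.09).

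Short sequence motifs were counted on both strands in the 500 bp around each midpoint. A match is a description of the sequence and does not show a bound factor. The ETS core CCGGAAG, of a family of activators, occurred in 2.78% (2.32 to 3.32) of the regions, against 1.32% (0.723 to 2.20) of those with a Hira-null peak and 1.85% (1.74 to 1.96) of all merged regions. The GC box GGGCGG, bound by Sp1-like factors, occurred in 8.90% (8.07 to 9.78), against 6.31% (4.93 to 7.95) and 8.48% (8.25 to 8.71). Regions of 1 WT day held the ETS core in 1.62% (1.45 to 1.81) for day 15 only and 3.29% (2.96 to 3.63) for day 0 only, and the GC box in 5.17% (4.86 to 5.49) and 10.6% (10 to 11.2). Both shares of the chosen regions thus lay between those of the 1-day sets. The same held for the following motifs of factors that differ between the 2 stages. The ESRRB motif TCAAGGTCA, of a stem cell receptor, occurred in 2.12% (1.72 to 2.59), against 1.12% (0.982 to 1.28) for day 15 only and 2.93% (2.63 to 3.26) for day 0 only. The GATA motif AGATAA, of a family with cardiac members, occurred in 31.2% (29.9 to 32.6), against 38.5% (37.8 to 39.1) for day 15 only and 24.6% (23.8 to 25.4) for day 0 only. The octamer ATGCAAAT, bound by OCT4 and related factors, occurred in 3.63% (3.09 to 4.23), against 2.95% (2.72 to 3.20) and 5.11% (4.71 to 5.54). The TEAD motif GGAATG also lay between, with 28.6%, against 27.6% and 30.2% in the same order. The remaining motifs counted did not, by small margins. The CCAAT box occurred in 47.2%, against 47.9% and 48.4%, and the AP-1 motif TGANTCA in 18.2%, against 19.9% and 18.3%. The E-box CACGTG occurred in 5.89%, against 5.08% and 5.88%.

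A protein-coding gene was counted when a region touched the gene, the 10 kb before its TSS or the 200 bp after its end, together called its window. By this count 2714 of 22367 genes (12.1%) had at least 1 region, and outside chromosomes 8 and 11 it was 1874 of 19632 (9.55%). Of these 2714 genes, 1617 had no region with a Hira-null peak in the window. The matching share over all genes is not given here, so this count is a description only. Genes with a region had longer windows, with a median of 42.5 kb against 25.6 kb over all genes, so regions are also given per Mb of window.

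Among the 18 gene lists, chromatin regulators had the highest share of genes with a region. Of 44 chromatin regulators, 27 had a region (61.4%, 45.5 to 75.6), and the density was 18.1 regions per Mb of window, against 3.54 over all genes. Outside chromosomes 8 and 11 it was 22 of 39, with 11.3 regions per Mb against 2.26. The order of the lists depended on the measure. Per Mb, splicing factors, ribosomal proteins and heat shock genes stood higher, and with a score of at least 100 in all lists the counts were 12 of 44 for chromatin regulators and 12 of 38 for splicing factors. Suz12, a core subunit of Polycomb repressive complex 2, had 11 regions in its window and Bptf, a subunit of the NURF remodeler, had 9, both on chromosome 11. Chd2 had 7 and Smarca5, on chromosome 8, had 6, both ATPases that remodel nucleosomes. The histone acetyltransferase genes Myst3, on chromosome 8, and Myst4 had 5 and 4, and the DNA demethylases Tet2 and Tet1 had 2 and 1.

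Suz12 carried regions along its body. The strongest, in an intron, spanned 7207 bp with a score of 647 at day 15 and 681 at day 0, and the one over its 3′ UTR scored 554 and 326. The weakest at day 15 scored 52.3, with 79.9 at day 0. Percentiles of its 11 regions in the day 15 list lay between 4.65 and 99.3, so strong and weak peaks stood side by side in 1 gene.

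Splicing factors were next, with 19 of 38 (50%, 33.4 to 66.6) and 33.8 regions per Mb. Outside chromosomes 8 and 11 it was 13 of 30, with 23.4 regions per Mb. Luc7l3, a factor associated with the U1 snRNP, had 10 regions on chromosome 11. Rbm25 had 5 and Hnrnpd, also known as Auf1, had 3. The widest Luc7l3 region spanned 9670 bp and scored 697 at day 15 and 228 at day 0. The 3 Hnrnpd regions scored 372, 332 and 250 at day 15, and 266, 269 and 56.2 at day 0. The third thus ranked far lower among the day 0 peaks than its neighbours.

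Glycolysis had 8 of 18 genes with a region (44.4%, 21.5 to 69.2), with 2 each at Eno1 and Pkm2. Hippo and Wnt pathway genes had 10 of 25 (40.0%, 21.1 to 61.3), and cyclins and kinases 10 of 27 (37.0%, 19.4 to 57.6). Cdk12, a kinase of the RNA polymerase II tail on chromosome 11, had 9 of the 19 regions of the cyclin and kinase list. Ribosomal protein genes had 13 of 50 (26.0%, 14.6 to 40.3), and because their windows are short, with a median of 13.4 kb, this was 21.0 regions per Mb. At Rps27a, also on chromosome 11, a region of 9011 bp scored 1525 at day 15, the highest day 15 score of all 4382 regions, and 184 at day 0. The intervals of these 4 lists lay above the background of 12.1%. That background includes genes without any WT region. Of the 10898 genes with a WT region in the window, 24.9% had a chosen region. Counted over such genes, ribosomal proteins had 13 of 42, glycolysis 8 of 15, Hippo and Wnt 10 of 23 and cyclins and kinases 10 of 23. Chromatin regulators had 27 of 40, splicing factors 19 of 36, pluripotency 5 of 20 and cardiac transcription factors 5 of 18. Outside chromosomes 8 and 11 the counts were 7 of 16 for glycolysis, 9 of 23 for Hippo and Wnt, 9 of 25 for cyclins and kinases and 8 of 42 for ribosomal proteins, against 9.55% of all genes. The interval of the ribosomal list there, 8.60% to 34.1%, held that background. With a score of at least 100 in all lists, 1 of 18 glycolysis genes, 2 of 27 cyclins and kinases and 6 of 25 Hippo and Wnt genes had a region, against 1004 of 22367 genes, and ribosomal proteins had 13 of 50.

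The intervals of the stem cell and lineage lists all held the background of 12.1%, and with few genes in each list they were wide. Pluripotency had 5 of 24 genes (20.8%, 7.13 to 42.2), cardiac transcription factors 5 of 27 (18.5%, 6.30 to 38.1), and the sarcomere and calcium list 3 of 23 (13%, 2.78 to 33.6). Outside chromosomes 8 and 11 these 3 lists had 5 of 22, 3 of 21 and 2 of 21. Neural genes had 3 of 17, endothelial and blood genes 2 of 14, matrix genes 3 of 14, smooth muscle genes 3 of 10 and endoderm genes 1 of 12. The remaining lists were housekeeping genes with 5 of 15, translation factors with 7 of 27, heat shock and immediate early genes with 5 of 17, and H3.3 genes and chaperones with 3 of 10. Per Mb of window, the lists not yet given had 20.2 regions for heat shock and immediate early genes, 17.5 for housekeeping genes, 16.7 for cyclins and kinases, 15.5 for glycolysis, 11.4 for translation factors, 8.84 for pluripotency, 8 for H3.3 genes and chaperones and 6.79 for Hippo and Wnt genes. Matrix genes had 5.64, smooth muscle genes 3.50, cardiac transcription factors 3.12, endoderm genes 3.07, endothelial and blood genes 3.06, the sarcomere and calcium list 2.04 and neural genes 1.81, against 3.54 over all genes. Outside chromosomes 8 and 11 all genes had 2.26. Matrix genes had 1.81 there, smooth muscle genes 2.42 and cardiac transcription factors 2.72. Endoderm genes had 0, endothelial and blood genes 1.23, the sarcomere and calcium list 1.68 and neural genes 0.381. Housekeeping genes had 18.2, heat shock and immediate early genes 15.5, ribosomal proteins 14.9, glycolysis 14.6 and cyclins and kinases 9.67. Pluripotency had 9.15, translation factors 6.67, Hippo and Wnt 6.54 and H3.3 genes and chaperones 5.14.

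**Figure D3:**
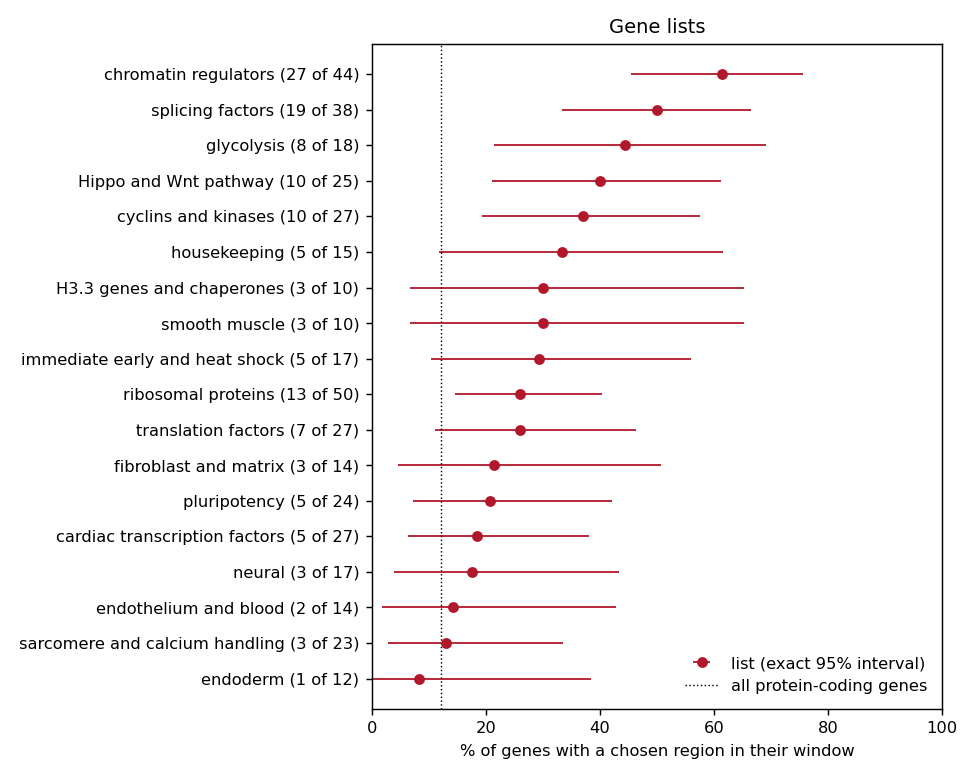
Percent of the genes of each list with at least 1 of the regions in the gene window, with exact 95% intervals, and a dotted line at 12.1% for all protein-coding genes. Chromatin regulators (61.4%) and splicing factors (50%) stand farthest from the line, and the intervals of the stem cell and lineage lists cross it.

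Single pluripotency genes showed the regions at different strengths. Jarid2, a Polycomb cofactor, had 4 intronic regions with day 15 scores of 165, 144, 72.4 and 62.6 and day 0 scores of 149, 83.4, 91.2 and 73.5. Sall4, a zinc finger factor of stem cells, had a promoter region with scores of 185 and 126 and an intronic one with 241 and 72.5. Nanog had 1 region, centred 681 bp upstream of its TSS, with a score of 51.9 at day 15 and 93.7 at day 0. Lin28a, an RNA-binding regulator of let-7, had 1 intronic region with 50.5 and 121. At both of these genes the day 15 peak was close to the lowest score of the list, 50.

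Among cardiac genes, Tead1 had 4 intronic regions with day 15 scores of 228, 293, 200 and 104 and day 0 scores of 50.3, 78.9, 65.5 and 207. By percentile within each list, only the last ranked higher at day 0. Atp2a2, which encodes the calcium pump SERCA2, had 3 regions, and the one over its 3′ UTR scored 338 and 332. Its 2 intronic regions scored 200 and 72.7 at day 15, and 63.2 and 135 at day 0. Meis1, a homeobox gene, had 1 intronic region with 339 and 234, and Mef2a 1 with 97.2 and 87.2. Myocd, a coactivator of serum response factor, had 1 with 68.1 and 115. Tnni1, the slow skeletal troponin I gene, had 1 with 95.8 and 59.8.

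Of the H3.3 genes and chaperones, H3f3b, which encodes H3.3, had 2 regions in its window. The nearer one, 2663 bp downstream of the TSS, scored 65.7 at day 15 and 90 at day 0, and the farther one, 11003 bp upstream, scored 241 and 111. Daxx had 2 upstream, with 123 and 93.9 at day 15 and 110 and 64.1 at day 0, and Ubn2 1 intronic region with 196 and 71.1.

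Genes with the most regions lay mostly on chromosomes 8 and 11. The highest count, 35, belonged to Gm20388, an annotated model whose window of 4445 kb spans many other genes on chromosome 8. The gene 1700081L11Rik on chromosome 11 followed with 32, then Ncor1, a nuclear receptor corepressor, with 24 and Usp34, a deubiquitinase, with 23. Taok1, a MAP3 kinase, had 18 regions in 88.9 kb, Ankrd11 16 and Psme4, a proteasome activator, 15. Cnot1, the scaffold of the CCR4-NOT deadenylase, Npepps, an aminopeptidase, Tlk2, a Tousled-like kinase, and Macf1, a cytoskeletal linker, each had 14. Med13, of the Mediator kinase module, had 13. In Npepps, Tlk2 and Med13 there was no region with a Hira-null peak in the window.

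Outside chromosomes 8 and 11, Macf1 led with 14 of the 57 WT regions in its window. Atf7ip, a partner of the SETDB1 methyltransferase, and Trip12, a ubiquitin ligase, had 8 of 15 and 8 of 35. Aebp2, a Polycomb cofactor, Chd2, Dennd5b, Etl4, Ncoa3, a nuclear receptor coactivator, and Nedd4, a ubiquitin ligase, each had 7. The 7 Aebp2 regions had a median percentile of 76.5 at day 15 and 46.4 at day 0, while for Chd2 it was 53.1 and 76.3.

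When regions up to 12 kb apart were joined, 58.9% (57.4 to 60.4) stood alone, and 228 clusters of at least 3 held 1061 regions. Without chromosomes 8 and 11, 74.0% (72.2 to 75.7) stood alone and 72 such clusters were left. The largest cluster had 32 regions over 133 kb at Mapt and 1700081L11Rik. The next had 24 over 153 kb at Hspa4, Zcchc10 and Aff4, 21 over 119 kb at Ncor1 and Pigl, 20 over 129 kb at Usp34 and 19 over 118 kb at Npepps and Mrpl45. Hspa4 encodes a heat shock protein and Aff4 the scaffold of the super elongation complex. Outside these chromosomes a cluster at Atf7ip had 7 regions over 20 kb, and those at Ncoa3, Aebp2 and Dennd5b had 6 each. The span of the Atf7ip cluster held no region with a Hira-null peak.

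Chromosomes 8 and 11 carried 1784 of the 4382 regions, or 40.7%. The density was 10.2 per Mb on chromosome 11 and 4.55 on chromosome 8, against 0.842 to 1.75 on the other autosomes. WT regions of any kind were also denser there, with 45.4 per Mb against 14.8, while regions with a Hira-null peak were not, with 8.64 against 9.37. Of the WT both-day regions, 87.4% (85.8 to 88.8) lacked a Hira-null peak on chromosomes 8 and 11, against 76.4% (74.9 to 77.8) elsewhere and 80.5% (79.4 to 81.6) overall. The X chromosome held 175 WT regions, of which 1 was present at both days, and none of the chosen regions. The part of chromosome copy number or input in these densities was not tested.

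**Figure D4:**
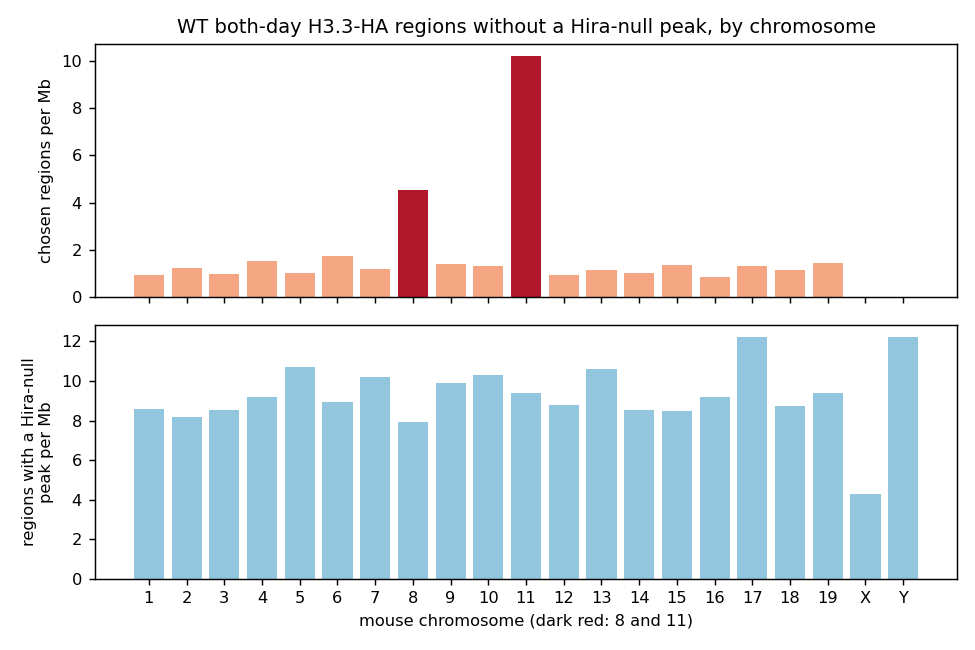
Chosen regions per Mb of sequence without gaps (top) and regions with a Hira-null peak per Mb (bottom), by chromosome, with chromosomes 8 and 11 in dark red. The top bars of chromosomes 11 (10.2) and 8 (4.55) stand above all others, and the bottom bars of these 2 do not.

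The peak score of the deposited lists is a scaled −log10 of the caller's p-value, which grows with read depth, so scores were ranked within each list. A region took the highest-scoring peak of a day. Its median percentile was 68.3 at day 15 and 57.2 at day 0, and 61.3 and 55.6 without chromosomes 8 and 11. The regions with a Hira-null peak ranked higher, at 81.2 and 80.0, and regions present at 1 WT day ranked lower, at 44.4 for day 15 only and 43.3 for day 0 only. The 2 percentiles were weakly related over the 4382 regions, with a Spearman correlation of 0.182, and 0.132 over the 2598 outside chromosomes 8 and 11. Both days share the same sequence and genotype at each region. In the top 10% of both lists were 207 regions (4.72%), and in the bottom 10% of both were 22 (0.502%). Of the 2598 outside chromosomes 8 and 11, 63 (2.42%) were in the top 10% of both and 13 (0.5%) in the bottom 10%.

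**Figure D5:**
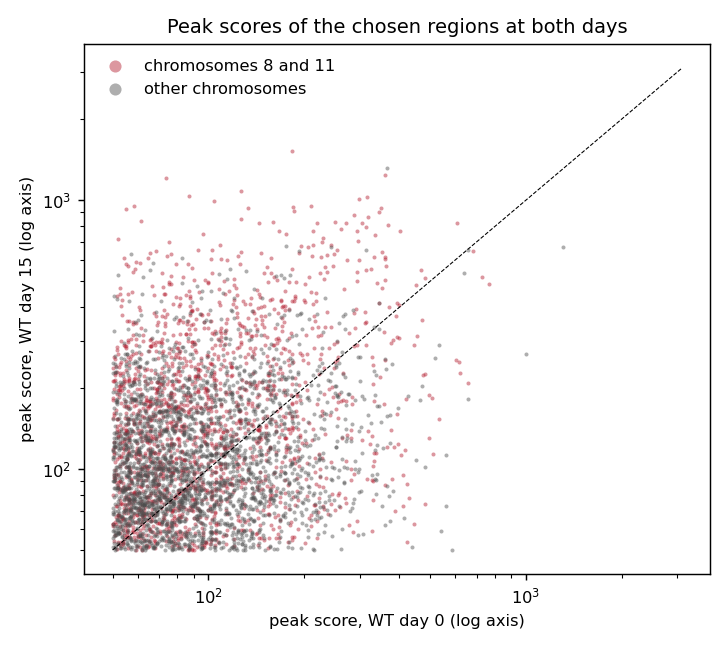
Peak score at WT day 15 against WT day 0 for the 4382 regions, both on log axes, with the diagonal dashed and the regions of chromosomes 8 and 11 in red. The points spread widely about the diagonal (Spearman correlation 0.182), and red points extend farthest towards high day 15 scores.

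The balance between the days differed by class. Percentiles were higher at day 15 in 66.4% (60.7 to 71.9) of regions downstream of genes, in 61.4% (57.7 to 64.9) of promoter regions and in 59.9% (57.9 to 62.0) of intronic ones. In distal intergenic regions it was 47.4% (44.1 to 50.7). These shares include chromosomes 8 and 11. Over all classes it was 58.4% (56.9 to 59.8) with them and 53.9% (52.0 to 55.9) without.

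The peaks of both days mostly covered the same bases. Regions held 1 peak per day in 89.1% of cases, and in 94.5% (93.7 to 95.1) the peaks of the 2 days overlapped by at least 50% of the shorter. In 48.5% (47.0 to 50) a peak lay wholly within the other. In 1 region the 2 peaks touched without sharing a base. Regions measured 596 to 17627 bp, with quartiles of 1241 and 2363 bp.

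The strongest regions were taken by the lower of the 2 percentiles. The first was 17627 bp wide over introns of Zfp207 on chromosome 11, which encodes a kinetochore and splicing factor, and scored 825 at day 15 and 605 at day 0. It held 4 day 15 peaks and 7 day 0 peaks, and was also the widest. Next came the 3′ UTR of Dennd5b on chromosome 6 (669 and 1308), and the promoter of Matr3 (654 and 658), the gene of a nuclear matrix protein. The Suz12 intron came after these. Hira-null day 15 peaks lay 183 bp from the Zfp207 region and 23 bp from the Matr3 region. An Aff4 intron scored 765 and 403, and a Hormad2 intron 548 and 466. The distal region nearest Zfp281, 70922 bp from its TSS, scored 534 and 637. Introns of Top2a, which encodes a topoisomerase of mitosis, scored 519 and 725 over 11899 bp. A distal region near Trim61 on chromosome 8 scored 515 and 483, the introns of Kpnb1, the gene of importin beta, 812 and 367, and an Npepps intron 486 and 766. The region over the facing 3′ ends of Ggcx and Mat2a, which encodes an enzyme of S-adenosylmethionine synthesis, scored 1323 and 365.

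Outside chromosomes 8 and 11 the ranking also held the sequence between D4Wsu53e and Syf2 (650 and 313) and a distal region 147181 bp upstream of Cited2, a coregulator of CBP and p300, (389 and 286). The Atp2a2 3′ UTR closed this ranking.

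The strongest promoter regions were centred between 1215 and 2916 bp upstream of the nearest TSS. After Matr3, the region of Gna13, which encodes a G protein subunit, scored 484 at day 15 and 452 at day 0. Lonrf1 followed with 413 and 344, Trim25, a ubiquitin ligase gene, with 385 and 312, and Coq3, of ubiquinone synthesis, with 377 and 270. Ctnnal1 scored 669 and 243, Tmem106a 542 and 236, Edc4, of mRNA decapping, 725 and 230, Syncrip 262 and 301 and Kifc3, a kinesin gene, 356 and 217. Ect2 scored 242 and 224, and Arl6ip5 229 and 226. A Hira-null day 0 peak lay 11 bp from the Ect2 region. Scores are not on 1 scale across the lists, and by percentile within its own list 7 of these 12 regions ranked higher at day 0 and 5 at day 15.

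Some regions were far stronger at 1 day. A distal region near Psmd4 scored 440 at day 15 and 50.6 at day 0, and the region at the 3′ end of Pogz 326 and 50.6. The region at the 3′ end of Prkar1a, a regulatory subunit gene of protein kinase A, scored 715 and 51.9, a distal region near Slc47a1 439 and 51.5, and an Arpp19 intron 430 and 51.5. The reverse held at Eif4e2, a cap-binding protein gene, with 50.1 at day 15 and 587 at day 0. Kdm3a, a histone demethylase gene, had 51.5 and 438, the promoter of Msh6, a mismatch repair gene, 50.3 and 261, and distal regions near Ier5 and Ctla4 50.1 and 215, and 50.5 and 213. In the Kdm3a region of 5357 bp only 40 bp lay under peaks of both days, so its 2 scores come from largely separate bases. In each case the weaker day was close to the lowest score of 50, so these regions were only just kept by the rule.

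The nearest Hira-null peak of either day was a median of 31022 bp away, and 628 regions (14.3%) had none within 100 kb. The median was 68424 bp to the nearest day 15 peak and 50730 bp to the nearest day 0 peak of Hira-null cells, whose lists held 7332 and 17706 peaks, against 27272 and 22730 in WT. A Hira-null peak lay within 1 kb of 165 regions (3.77%) and within 100 bp of 18.

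At the edge of the rule, the promoter region of Dag1 had a Hira-null day 0 peak 7 bp away and scored 78.0 and 81.3 in WT. The region over the 3′ UTR of Ppp2ca, a phosphatase gene, also had one 7 bp away and scored 411 and 135. In an intron of Cacna1d, a calcium channel gene, a Hira-null day 15 peak lay 8 bp away, with WT scores of 67.5 and 97.3. Just outside the rule, a WT both-day region on chromosome 6 nearest Gm11078 touched a Hira-null day 0 peak end to end, with WT scores of 170 and 172. A region on chromosome 13 nearest A830005F24Rik shared 19 bp with a Hira-null day 15 peak and scored 97.2 and 67.3, and one near Vasp shared 38 bp and scored 54.1 and 52.4.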

How the data were processed

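H3.3-HA was measured by native ChIP followed by sequencing in 4 conditions, WT and Hira-null at day 15 and day 0, each with 1 ChIP and 1 input library. Per the study's methods, the authors aligned paired-end reads to mm9 with Bowtie, removed duplicates and called peaks with MACS 1.4.2 at its default threshold. The deposited lists give chromosome, start, end and a peak score, the caller's scaled −log10 of a p-value, with a lowest value of 50. Read depth per library is not given in the sources used here, and since scores grow with depth they were ranked within each list only.

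Peaks of the 4 lists were merged, and regions were taken by the rule given at the start of the report. The merging was tested on simulated data and checked against bedtools 2.31.1. Genes were the 22367 protein-coding records of GENCODE M1 on NCBIM37, the same assembly as mm9. The midpoint of a region decided its class, and where classes overlapped, promoters went first, then the 3 kb past gene ends, then UTRs, exons and introns. Of 413 list entries 412 were found, 3 of them under older symbols, and Sox1 was left out.

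The regions named were set by rule: the 12 strongest at both days and 8 outside chromosomes 8 and 11, the 10 strongest promoter regions and 6 outside, the 12 genes with most regions and 10 outside, the 5 largest clusters of each, list genes, the 3 regions nearest to and just past the edge of the rule, the 3 widest, and the 5 most shifted to each day. Of the list genes, examples were printed, and some items that the rule names are not reported here. Regions and lists were chosen with earlier results of these data known. With 1 library per condition no p-value was computed. Alternatives were other score minimums, equal list lengths, wider Hira-null peaks, merging at 1 kb, a larger overlap of the days, other class and gene rules, other stitching, and runs without chromosomes 8 and 11. Strata of width and score, the downstream class under each alternative, and the widths, scores, distances and cluster counts without chromosomes 8 and 11 were added after the data were seen. Intervals came from scipy 1.17.1, tables from pandas 2.3.3 and numpy 2.4.6, and plots from matplotlib 3.10.9, all under Python 3.11.15.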

Additional observations from a re-analysis of the deposited data

How the results depend on the processing

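The number of regions followed the stringency of the lists. It was 2598 without chromosomes 8 and 11, 1296 with a score of at least 100 in all lists, 1186 with that score in the WT lists only, and 947 with each list held to the 7332 peaks of the shortest. Genes with a region were 1004, 908 and 763 under the last 3. Widening Hira-null peaks, merging at 1 kb and a larger overlap of the days left 4217, 4154 and 4139 regions. The promoter share was 18.7% without chromosomes 8 and 11, 15.1%, 15.3% and 15.1% under the 3 stricter settings, 17.8% under 3 kb of width, 19.4% by any overlap and 7.14% with a promoter of 1 kb. The downstream share was 8.64% with a score of at least 100 in all lists, 7.60% at equal list length, 8.85% by any overlap and 7.96% with the shorter promoter. The intron share was 46.3% without chromosomes 8 and 11, 49.5% with the score minimum in all lists and 36.1% by any overlap. The distal share was 23.5% without chromosomes 8 and 11, 19.1% at equal list length, 19.3% by any overlap and 26.9% with the shorter promoter. Median GC moved to 44.4%, 43.6%, 43.6%, 43.3% and 44.3% without chromosomes 8 and 11, with the score minimums, at equal list length and after merging at 1 kb. Without chromosomes 8 and 11 the median width was 1451 bp, the percentiles 61.3 at day 15 and 55.6 at day 0, and the distance to a Hira-null peak 27850 bp. Chromatin regulators with a region were 9 to 28 of 44 over the alternatives, and splicing factors 9 to 18 of 38. With each list held to the shortest these 2 lists had 9 each and ribosomal proteins 11 of 50, while glycolysis had 1 of 18, cyclins and kinases 1 of 27 and Hippo and Wnt genes 3 of 25. The causes were not tested.

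No paired analysis was possible because each condition has 1 ChIP library and no replicates. Leaving out repeat-masked bases was not run, since the genome used carries no masking. Read depth is unknown, and the Hira-null day 15 list is the shortest, so a missing Hira-null peak shows that none was called and not that H3.3 was absent.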
